A study of Mus musculus with 8 samples.

Results

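The mouse genome holds 39 Hox genes in 4 clusters, and the accessibility of all 39 was read here from ATAC-seq peak lists of thymocytes. The genes were taken by symbol, as protein-coding genes named Hoxa, Hoxb, Hoxc or Hoxd followed by a number, and are 39 of 21887 protein-coding genes in the RefSeq table of the GRCm38.p6 assembly. Each cluster was studied as a window from its first to its last gene with 20 kb added on both sides, and the 4 windows held 180 of the 180321 regions covered by a peak in any library. The rule for genes and windows used no measured value, though it was chosen with earlier results of these data known.

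ATAC-seq maps open chromatin with a transposase that cuts accessible DNA and ligates sequencing adapters to it. The cells were C57BL/6 DN3 thymocytes, immature T cells at the stage where the T-cell receptor beta chain is tested. The study asked what the GATA sites of N-Me, the enhancer through which Notch activates Myc, do in these cells. Of its 8 samples, 2 libraries came from DN3 cells with a wild-type N-Me and 2 from DN3 cells homozygous for mutations of N-Me GATA sites 1 and 2. The labels name no other allele or agent for these 4 libraries and give no age, sex or number of animals. Another 4 samples, of leukaemia, were not analysed here. Nothing in the labels states that libraries of a genotype came from separate mice, so each p-value below measures only the spread between these libraries, which may be technical.

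The wild-type lists were longer than the mutant lists, with 169255 and 156372 against 121022 and 119023 peaks, yet all 4 covered 69.3 to 72.3 Mb. Median peak length was 284 and 302 bp in wild type and 444 and 421 bp in the mutant. The labelled cell type was checked by peaks at gene starts. All 12 DN3 markers (among them Ptcra, Rag1, Notch3 and Bcl11b) had one in every library, as did 4 of 6 B-cell, 2 of 6 myeloid, 2 of 5 erythroid, 4 of 7 thymic stroma and 5 of 6 progenitor markers, beside 66.8% of all protein-coding genes. Those called in every library included Ebf1 (B cell), Cebpa (myeloid), Klf1 (erythroid), Krt8 (thymic stroma), and Flt3 and Cd34 (progenitor). No library had a peak at Ms4a1, Elane, Ly6g, Gata1, Hba-a1, Alas2, Psmb11 or Krt5. Starts of Csf1r and Mpo, both myeloid genes, were called in the wild-type libraries alone, and the part of other cells in the results was not tested. Peak lists hold no read counts, so depth is unknown, and a place without a peak is one where none was detectable at that library's depth.

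Hox genes encode homeodomain transcription factors that give cells their position along the body axis. They lie in the order of their expression along that axis, from paralogue group 1 (anterior, hindbrain) to group 13 (posterior, tail bud and distal limb). Polycomb complexes keep the clusters silent, and Trithorax proteins such as Kmt2a (MLL) keep them active. In blood, Hoxa and Hoxb genes, among them Hoxa9 and Hoxb4, are expressed in stem and progenitor cells and are turned down as cells mature, and Hoxa genes are abnormally active in a subset of T-cell leukaemias. Here groups 1 to 8 are called anterior (23 genes) and groups 9 to 13 posterior (16 genes, related to the fly gene Abdominal-B).

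Promoter sequences are shown for 6 genes that span the range of the data. Hoxd1, Hoxa10, Hoxd9 and Hoxb4 had the strongest start peaks in all 4 libraries among the Hox genes with an entry in the RefSeq promoter table (GRCm38.p6). Hoxa5 and Hoxa9 had no peak at the start in any library. Each sequence runs 5′ to 3′ from 250 bases before to 50 bases after the start. Capitals mark matches on either strand to GATA and its longer form AGATAA (which overlaps it), to TGATTNA (part of a site that Hox and Pbx proteins can share), to the CCAAT box, to the TATA box as TATAAA, to the Sp1 motif GGGCGG and to the Ets motif TTCCTG.
Hoxd1, chr2:74762730-74763029, plus strand: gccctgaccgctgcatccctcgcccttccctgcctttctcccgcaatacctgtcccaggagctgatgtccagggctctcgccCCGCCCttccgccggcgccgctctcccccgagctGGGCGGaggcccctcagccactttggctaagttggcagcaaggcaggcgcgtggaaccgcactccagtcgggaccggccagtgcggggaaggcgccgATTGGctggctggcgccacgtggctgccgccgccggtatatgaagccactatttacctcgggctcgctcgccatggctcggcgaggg
Hoxa10, chr6:52240805-52241104, minus strand: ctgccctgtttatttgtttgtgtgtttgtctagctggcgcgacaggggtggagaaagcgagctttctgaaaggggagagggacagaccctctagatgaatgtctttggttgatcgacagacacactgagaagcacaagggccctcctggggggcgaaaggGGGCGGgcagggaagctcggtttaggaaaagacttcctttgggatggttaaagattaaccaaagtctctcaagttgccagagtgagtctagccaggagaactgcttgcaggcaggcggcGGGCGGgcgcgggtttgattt
Hoxd9, chr2:74697513-74697812, plus strand: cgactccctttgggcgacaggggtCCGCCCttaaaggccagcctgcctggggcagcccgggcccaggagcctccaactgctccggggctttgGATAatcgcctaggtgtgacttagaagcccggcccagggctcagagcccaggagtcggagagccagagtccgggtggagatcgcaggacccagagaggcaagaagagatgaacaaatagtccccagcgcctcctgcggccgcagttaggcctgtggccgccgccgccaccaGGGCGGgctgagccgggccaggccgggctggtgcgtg
Hoxb4, chr11:96318017-96318316, plus strand: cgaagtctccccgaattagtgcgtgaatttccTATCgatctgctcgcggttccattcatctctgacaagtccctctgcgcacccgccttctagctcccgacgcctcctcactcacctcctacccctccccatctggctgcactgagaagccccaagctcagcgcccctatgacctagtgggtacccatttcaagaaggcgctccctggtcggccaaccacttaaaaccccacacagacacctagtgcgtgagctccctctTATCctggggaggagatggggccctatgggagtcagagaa
Hoxa5, chr6:52204538-52204837, minus strand: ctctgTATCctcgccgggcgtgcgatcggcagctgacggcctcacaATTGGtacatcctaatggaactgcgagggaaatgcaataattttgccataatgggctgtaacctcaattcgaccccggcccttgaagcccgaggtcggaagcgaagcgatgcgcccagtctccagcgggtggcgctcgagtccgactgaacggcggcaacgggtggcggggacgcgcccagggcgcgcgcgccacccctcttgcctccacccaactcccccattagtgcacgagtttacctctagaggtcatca
Hoxa9, chr6:52227321-52227620, minus strand: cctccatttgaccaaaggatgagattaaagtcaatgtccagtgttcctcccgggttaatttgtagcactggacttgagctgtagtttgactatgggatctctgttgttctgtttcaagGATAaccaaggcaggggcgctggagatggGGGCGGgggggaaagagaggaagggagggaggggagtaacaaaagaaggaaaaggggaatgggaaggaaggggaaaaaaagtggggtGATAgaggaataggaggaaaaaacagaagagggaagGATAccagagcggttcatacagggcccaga

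Peaks covered 300, 291, 300 and 300 of the 300 bases of the Hoxd1 promoter (wild-type libraries 1 and 2, then mutant libraries 1 and 2, the order used throughout). In Hoxd9 they covered 214, 172, 232 and 196 bases, and in Hoxb4 162, 136, 183 and 130 bases. In Hoxa10 they covered none of the bases shown, because its strongest peak began 54 bp inside the gene. Hoxa9 held 4 CpG dinucleotides in 300 bases and Hoxd1 held 29, but Hoxa5 also held 29 without a peak.

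The promoter table held 24 promoters of 22 Hox genes. The 12 that overlapped a peak in all 4 libraries had a median of 21 CpG and 62.3% GC, and the 8 that overlapped none had a median of 9 CpG and 47.7% GC, beside 13 CpG and 56.3% over 21263 protein-coding promoters. The letters GATA stood in 13 of the 24 (54.2%, against 53.2% of all promoters), and the longer AGATAA in 0 of 24 (9.65% of all). CCAAT stood in 15 (62.5% against 38.2%), and TGATTNA in 4 (16.7% against 9.17%). TATAAA was in 4 (16.7% against 12.6%), GGGCGG in 10 (41.7% against 46.2%) and TTCCTG in 3 (12.5% against 29.0%). These matches describe letters in the window and show no binding.

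The clusters also hold microRNAs, small RNAs that repress Hox and other transcripts, and the 5 mature arms shown here (RefSeq, GRCm38.p6) fall into 3 seeds, printed in capitals. They are shown because the miR-196 arms share a seed while their hairpins differed in peak calls.
mmu-miR-196b-5p (Hoxa): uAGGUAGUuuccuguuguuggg
mmu-miR-196a-5p (Hoxb and Hoxc): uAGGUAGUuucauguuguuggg
mmu-miR-10a-5p (Hoxb): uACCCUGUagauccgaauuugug
mmu-miR-10b-5p (Hoxd): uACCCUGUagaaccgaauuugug
mmu-miR-615-3p (Hoxc): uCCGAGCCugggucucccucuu

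The Mir196b hairpin (chr6:52230081-52230165, between Hoxa9 and Hoxa10) lay wholly inside a peak in all 4 libraries, with fold enrichment of 2.77, 2.71, 2.22 and 2.20. Fold enrichment is the pileup over the local background, averaged over a peak by the authors' caller. Both hairpins that give miR-196a, Mir196a-1 in Hoxb and Mir196a-2 in Hoxc, had no peak in any library. The hairpins of miR-10, Mir10a next to Hoxb4 and Mir10b inside Hoxd4, also had none. The Mir615 hairpin, inside Hoxc5, was fully covered in 3 libraries and by 70.7% in wild-type library 2, at fold 2.43, 2.32, 2.56 and 2.38.

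A peak within 1 kb of the start was found at 34, 35, 33 and 33 of the 39 Hox genes. In all 4 libraries it was found at 33 of 39, beside 66.8% of protein-coding genes (percent called over 21887 genes). By cluster these were 8 of 11 in Hoxa, 8 of 10 in Hoxb, 9 of 9 in Hoxc and 8 of 9 in Hoxd. By position they were 18 of 23 anterior and 15 of 16 posterior genes. No consensus region called in all 4 libraries was within reach of more than 1 Hox start, so these calls do not rest on shared regions. The 22 genes in the promoter table were read at their annotated starts, and the other 17, whose strand that table did not give, at either end. Of the former 81.8% were called in all 4 libraries (66.5% of all genes so read), and of the latter 88.2% (68.1%). With every gene read at the end that its cluster's direction of transcription makes the start, an alternative chosen after seeing the data, 30 of 39 were called, 16 anterior and 14 posterior. No share over all genes was available for that reading.

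**Figure D1:**
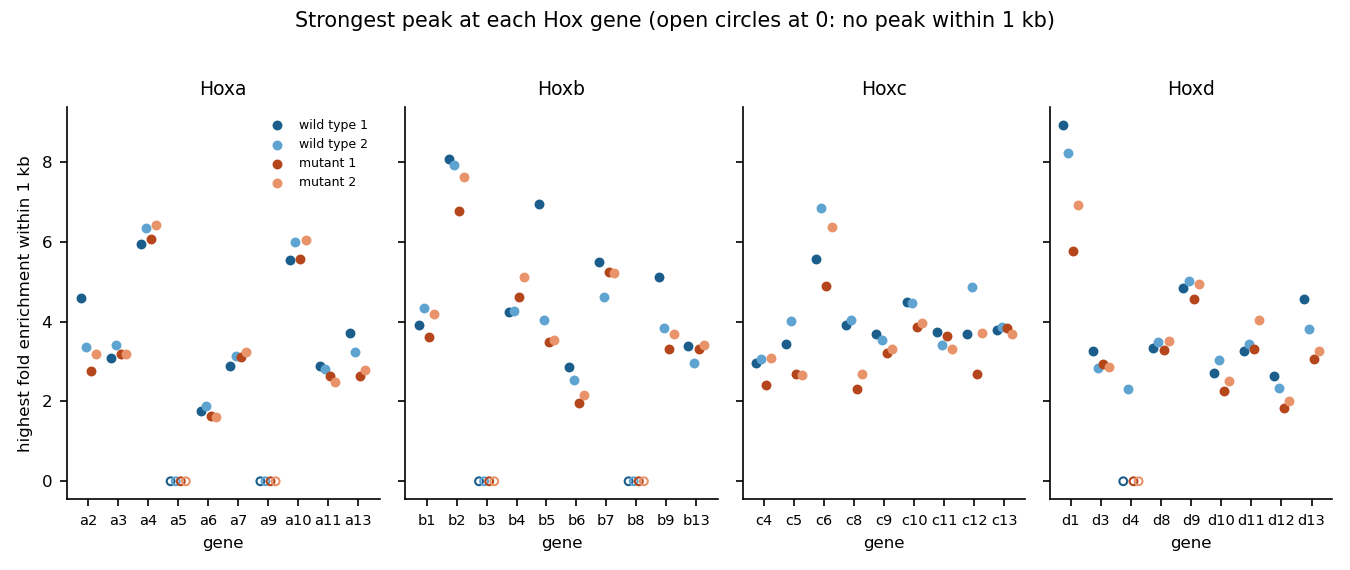
Highest fold enrichment of a peak within 1 kb of the start of 38 Hox genes (y axis, a ratio), by gene (x axis, in 4 panels by cluster) and library (blue wild type, red mutant). Genes without an entry in the promoter table were read at either end, among them Hoxb2, whose peak lay toward its 3′ end. Open circles at 0 mean that no peak was called. Hoxb2, Hoxa4, Hoxd1, Hoxa10 and Hoxc6 are the 5 highest by the lowest of their 4 values.

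Among anterior genes, Hoxb2, which acts in the hindbrain, had the strongest peak by the lowest of its 4 folds, with 8.07, 7.91, 6.76 and 7.62. That peak (chr11:96352624-96353612) lay toward the annotated 3′ end of the gene, with its region 992 bp from the end where transcription begins. It came within 1 kb of that end in mutant library 2 alone. A separate, weaker peak nearer that end was called in both mutant libraries, at 2.44 and 2.07, and in neither wild-type library. The start of Hoxd1 gave 8.92, 8.23, 5.77 and 6.92, with both wild-type values above both mutant values. Hoxa4 was nearly level at 5.95, 6.34, 6.07 and 6.41. Hoxc6, a gene of brachial motor neurons, gave 5.57, 6.85, 4.88 and 6.37, and the genotypes overlapped. Hoxb7 gave 5.48, 4.61, 5.24 and 5.23, and Hoxb4, which expands blood stem cells when overexpressed, gave 4.25, 4.27, 4.61 and 5.11. Hoxb4 was thus higher in both mutant libraries, unlike Hoxd1. Hoxb1, a gene of hindbrain rhombomere identity, gave 3.91, 4.33, 3.61 and 4.18. Hoxb5 gave 6.94, 4.03, 3.48 and 3.53, where wild-type library 1 stood apart. The strongest peak there was 230 bp long in wild-type library 1 and 1087, 1181 and 1238 bp in the others. The part of peak length in this difference was not tested.

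Start peaks at posterior genes spanned a narrower range of fold. Hoxa10, a regulator of blood progenitors and of the uterus, was the strongest of them, with 5.55, 5.99, 5.56 and 6.04. Hoxd9 gave 4.85, 5.0, 4.57 and 4.95. Hoxc10, a gene of lumbar motor neurons, gave 4.49, 4.46, 3.87 and 3.96, and Hoxc13, which hair formation requires, gave 3.79, 3.86, 3.83 and 3.70. The 4 values of Hoxc13 lay closest together among the 12 genes given in full. The 15 posterior genes called in all libraries had lowest folds of 1.84 (Hoxd12) to 5.55, with a median of 3.22, and the 18 anterior genes 1.60 (Hoxa6) to 6.76, with a median of 3.18. Group 13 genes, which pattern digits, hindgut and genitalia, were called in all libraries in all 4 clusters: Hoxd13 gave 4.56, 3.81, 3.06 and 3.26, and Hoxa13 gave 3.70, 3.24, 2.63 and 2.80, with wild type above the mutant in both. The strongest peak at Hoxa13 was 391, 505, 528 and 2035 bp long, and the part of peak length in its folds was not tested. Hoxb13 gave 3.39, 2.97, 3.30 and 3.42, and there, as in Hoxc13, the genotypes overlapped.

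Hox genes without a start peak in any library numbered 4, Hoxa5, Hoxa9, Hoxb3 and Hoxb8, beside 28.2% of protein-coding genes. The nearest peak to Hoxa5, a lung and axial patterning gene, was 4188, 4187, 3985 and 4165 bp away, and no base of its span was covered. Hoxa9, the Hox gene most often activated in leukaemia, was just past the 1 kb limit, with peaks 1258, 1113, 1096 and 1113 bp from the start, and 14.6%, 16.9%, 12.9% and 16.6% of its span was covered. Hoxb3 had its nearest peaks 1711 to 2884 bp away. Hoxb8 had peaks 1122 to 1148 bp from the start in the promoter table, but at the outer end of its gene model, where the cluster's transcription would begin, there was a peak of 10.1, 10.8, 5.45 and 5.45. That peak was 176 and 177 bp long in wild type and 522 and 493 bp in the mutant, and the part of its length in the fold was not tested. With every gene read at the end where its cluster's transcription would begin, 5 had no peak in any library. These were Hoxa5, Hoxa9, Hoxb3, Hoxb6 and Hoxc4. Hoxb6 was counted as called through its other end, and Hoxc4 at a start of the promoter table inside its gene model. Within 2.5 kb of a start, 36 of 39 genes had a peak in all 4 libraries, beside 70.8% of protein-coding genes, and within 500 bp 31 had one, beside 64.5%.

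With starts read this way, no Hox start was called in the mutant libraries alone, beside 0.0914% of protein-coding genes (1.76% for the wild-type libraries alone). Read at the end where transcription begins, Hoxb2 was called in the mutant alone, as above. Hoxd4, an anterior gene of the Hoxd cluster, was called in wild-type library 2 alone, at 2.3.

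**Figure D2:**
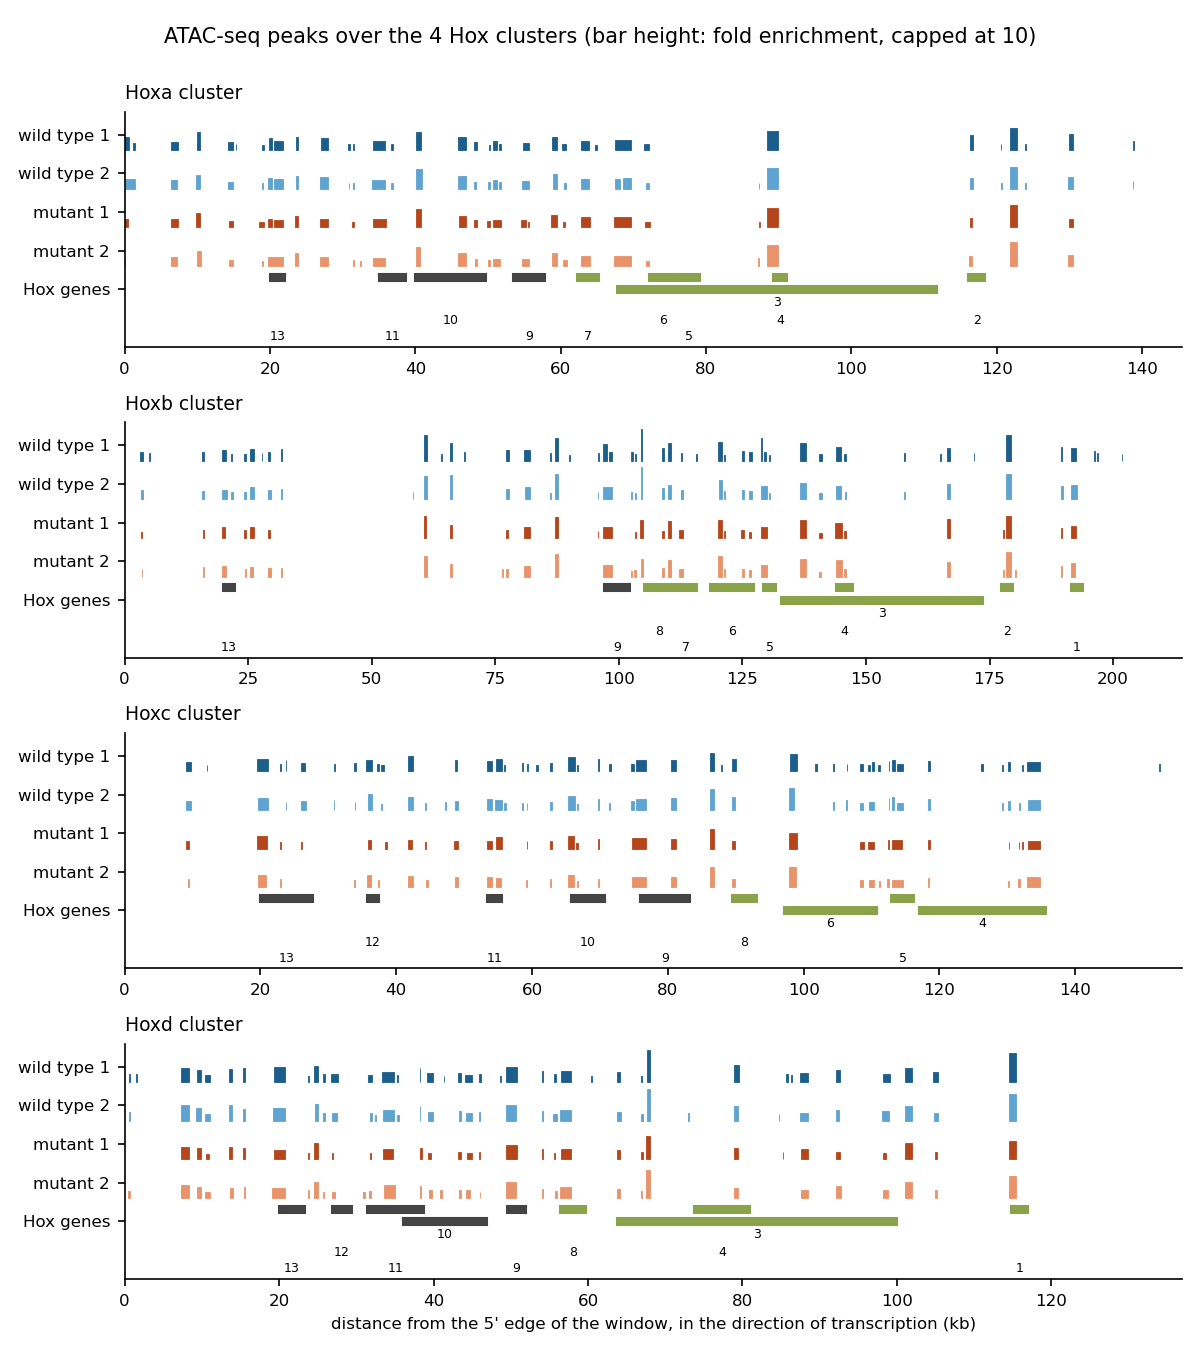
Peaks in each Hox window (bars, width to scale, height the fold enrichment capped at 10) against distance in kb from the 5′ edge, with 1 row per library. Posterior genes are dark and anterior genes green, numbered by paralogue group (38 genes drawn). Long stretches without peaks lie inside Hoxa3 and between Hoxb13 and Hoxb9.

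Counting peaks of any fold, a larger share of the Hox windows was covered than of the surroundings of most genes. In Hoxa (chr6:52135367-52280880) they covered 15.2%, 14.9%, 14.9% and 14.1% of bases. In Hoxd (chr2:74648225-74785142) they covered 15.4%, 14.3%, 12.5% and 13.3%. In Hoxc (chr15:102901131-103056856) the values were 13.7%, 11.7%, 11.1% and 10.9%. Hoxb (chr11:96174316-96388254) was the least covered in every library, at 9.996%, 9.61%, 9.05% and 9.12%. The median over all protein-coding genes with 20 kb on both sides was 5.53%, 5.34%, 5.42% and 5.24%. Hoxa stood above 92.5% to 94.4% of those gene windows and Hoxb above 72.2% to 76.5%.

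Within libraries, Hoxa exceeded Hoxb by 5.33 percentage points and Hoxc by 2.94, Hoxd exceeded Hoxb by 4.45 and Hoxc by 2.05, and Hoxc exceeded Hoxb by 2.39, each in 4 of 4 libraries. The exact two-sided sign-flip permutation test gave p = 0.13 for each of these (1 in 8, the smallest value that 4 libraries allow; adjusted p = 0.15 over 6 pairs). Hoxa exceeded Hoxd by 0.885 points in 3 of 4 libraries (exact permutation p = 0.25, adjusted p = 0.25). No pair therefore passed 0.05. The order changed when weak peaks were left out. With peaks of fold 4 or more alone, Hoxa covered 5.05%, 3.07%, 2.57% and 2.41%, Hoxb 3.58%, 4.38%, 3.24% and 3.69%, Hoxc 2.06%, 2.74%, 1.10% and 0.916%, and Hoxd 5.83%, 4.85%, 3.14% and 4.83%. Hoxc then became the lowest in every library, and Hoxa was below Hoxb in 3 of 4.

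**Figure D3:**
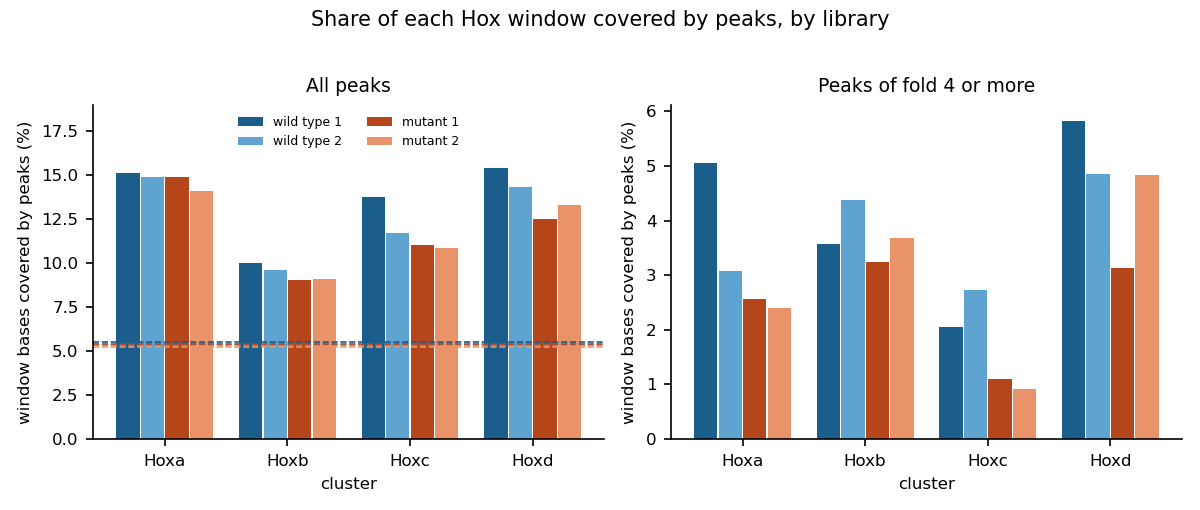
Percent of window bases covered by peaks (y axis) for each cluster (x axis) and library (bars, 1 value each, no error), with all peaks at left and peaks of fold 4 or more at right. Dashed lines, at left only, are the medians of 5.24% to 5.53% over protein-coding gene windows. Hoxb is lowest at left, and Hoxc is lowest at right.

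Posterior genes were more fully covered than anterior genes. Over gene spans with 1 kb on both sides, peaks covered 26.9%, 26.1%, 22.2% and 23.5% of posterior bases and 13.97%, 12.8%, 13.4% and 13.03% of anterior bases. The mean difference was 11.4 percentage points, in 4 of 4 libraries (exact two-sided sign-flip permutation p = 0.13, the smallest possible). Posterior also exceeded anterior in every cluster and library, by 14.9 to 17.4 points in Hoxa, 6.01 to 17.6 in Hoxb, 6.10 to 10.6 in Hoxc and 7.83 to 12.5 in Hoxd. Posterior values were higher in both wild-type libraries than in both mutant libraries, while anterior values overlapped between genotypes.

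Single genes varied widely within both classes. Hoxa13 had 45.1%, 44.2%, 47.1% and 51.6% of its span covered and Hoxc11 39.5%, 44.2%, 33.6% and 31.8%. Hoxa4 was the most covered anterior gene, at 34.9%, 37.0%, 37.1% and 36.1%. Hoxa3, Hoxb3 and Hoxd3, the group 3 genes, of which Hoxa3 is needed to form the thymus, averaged 9.06%, 9.09% and 10.3%. Their annotated spans of 44.0, 40.8 and 36.3 kb run across neighbouring genes, and 5 of the 6 genes longer than 10 kb are anterior. Lower averages were found at the anterior genes Hoxa5 (0%), Hoxd4 (6.08%), Hoxa2 (8.47%) and Hoxa6 (8.63%).

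The gap in coverage was smaller among short genes. Restricted to genes of at most 10 kb (chosen after seeing the data), anterior genes were at 18.0%, 17.6%, 18.7% and 18.3% and posterior genes at 27.3%, 26.8%, 22.7% and 24.2%, a difference of 7.13 points. Within 2 kb of the start on both sides (also chosen after seeing the data) the difference was 9.03 points. Peaks of fold 4 or more did not show it. Those peaks covered 6.33%, 3.57%, 2.00% and 3.17% of posterior bases and 4.64%, 5.74%, 4.66% and 4.83% of anterior bases, a mean difference of -1.20 points (exact permutation p = 0.375), with anterior higher in 3 of 4 libraries.

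**Figure D4:**
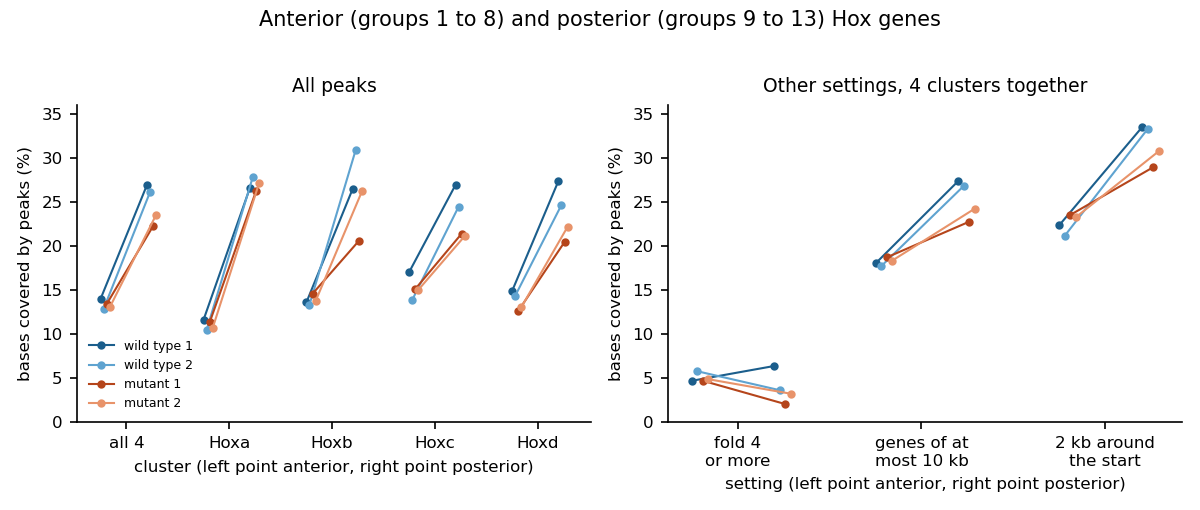
Percent of bases covered by peaks (y axis) for anterior (left point) and posterior (right point) Hox genes, joined by a line for each library. The left panel shows all peaks, for the 4 clusters together and singly, where every line rises. The right panel shows 3 other settings, where the lines rise except for peaks of fold 4 or more, of which 3 of 4 fall.

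Hox regions called in all 4 libraries were somewhat wider and of lower fold than such regions over the genome. Of the 180 regions, 108 (60.0%) were called in all 4 libraries, beside 56.7% of all regions. Their median width was 699.5 bp, against 608 bp over all regions called in 4 libraries, and their median lowest fold was 2.68 against 3.36. In 19 of the 108 (17.6%) the fold reached 4 in every library, beside 36.4% of all such regions. By cluster these were 4 of 25 in Hoxa, 8 of 30 in Hoxb, 2 of 24 in Hoxc and 5 of 29 in Hoxd. Of the 108, 65 overlapped a Hox gene and 36 lay within 1 kb of a Hox start, with a median distance of 2.70 kb.

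The strongest regions of Hoxc and Hoxd lay 2.67 and 3.74 kb from the nearest Hox start. In Hoxd it was chr2:74715732-74716273, within the Hoxd3 gene model and its antisense RNA Hoxd3os1, at 12.4, 11.4, 7.31 and 8.77. Its peaks were 428, 463, 542 and 468 bp long, and since fold is averaged over a peak, the part of peak length in the higher wild-type values was not tested. In Hoxb the region inside Hoxb2 given above led, and in Hoxc the region chr15:102987328-102987869, between Hoxc9 and Hoxc8, at 5.59, 6.54, 6.24 and 6.46.

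Strong regions also lay between Hox genes. A region at chr11:96234817-96235523, in the stretch between Hoxb13 and Hoxb9 and 35.8 kb from the Hoxb9 start, gave 8.08, 7.30, 6.90 and 6.48. A region in the non-coding gene Gm53 (chr11:96261448-96262008), 9.32 kb from Hoxb9, gave 7.04, 7.88, 6.68 and 6.95. In Hoxd a region of 476 bp between Hoxd13 and Hoxd12 (chr2:74672757-74673232) gave 5.08, 5.22, 5.22 and 4.88. Other regions among the 3 strongest of a cluster were at Hoxa4, Hoxa10, Hoxc6, Hoxc10 and Hoxd1.

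None of the widest regions was among the 3 strongest of its cluster. They measured 2247 bp at the outer start of Hoxa3 (chr6:52211258-52213504, also over Hoxaas3), 1963 bp at Hoxb9 (chr11:96271043-96273005), 2194 bp at Hoxc9 (chr15:102975668-102977861) and 1667 bp at Hoxd13 (chr2:74667360-74669026). Their lowest folds were 3.09, 3.31, 3.22 and 3.06, beside a median of 2.68 over the 108 Hox regions called in all 4 libraries. The part of peak length in these folds was not tested. Of these 4 regions, 3 were at posterior genes.

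Between genotypes, wild type had more Hox peaks. Hoxa had 35 and 34 peaks in wild type and 28 and 27 in the mutant, Hoxb 50 and 38 against 32 and 35, Hoxc 48 and 40 against 30 and 30, and Hoxd 39 and 35 against 31 and 34. No cluster's genotypes overlapped. Together the windows held 159.5 ± 17.7 peaks (SD, n = 2) in wild type and 123.5 ± 3.54 (SD, n = 2) in the mutant, a ratio of 1.29 beside 1.36 for the whole lists. The exact two-sided permutation test gave p = 0.333 for each cluster and for all 4, the smallest value that 2 against 2 libraries allow.

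Covered length differed less. Peaks covered 83004 ± 4145 bp (SD, n = 2) of the windows in wild type and 75308 ± 163 bp (SD, n = 2) in the mutant (exact permutation p = 0.333), a ratio of 1.10 beside 1.01 for the whole lists. By cluster the ratio was 1.03 in Hoxa (exact permutation p = 0.667), 1.08 in Hoxb, 1.161 in Hoxc and 1.15 in Hoxd (exact permutation p = 0.333 each). With the same number of peaks kept in each list the direction turned, to 14 more Hox peaks and 3425 bp more covered in the mutant (exact permutation p = 0.333 for both). Covered length in Hoxd did not turn, with a mutant minus wild type difference of -721 bp (exact permutation p = 0.667). The mutant lists hold fewer and longer peaks, and the part of this in the Hox values was not tested further.

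Hox regions that the pair of wild-type libraries shared and both mutant libraries lacked numbered 19 of 134 (14.2%), beside 15.0% of all regions. They were 5 of 30 in Hoxa, 4 of 37 in Hoxb, 9 of 35 in Hoxc and 1 of 32 in Hoxd. They were 82 to 507 bp wide, with folds of 1.80 to 3.56. Without wild-type library 2 the count was 45 of 165 (27.3%, beside 25.4% of all regions), and with equal numbers of peaks it was 0 of 94 (4.92% of all regions).

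In Hoxc these regions lay inside Hoxc13 (chr15:102924834-102924952, 3.56 and 2.41), inside Hoxc4 (chr15:103030349-103030430), at 2 places inside Hoxc6 (chr15:103005405-103005619 and chr15:103007435-103007535) and at 5 places between genes (chr15:102931922-102932042, chr15:102938868-102939374, chr15:102957007-102957247, chr15:102959691-102959832 and chr15:102972427-102972693). In Hoxa they included 1 inside Hoxa11 (chr6:52243924-52244203) and 2 outside Hox genes (chr6:52141998-52142170 and chr6:52249932-52250111). In Hoxb they lay inside Hoxb13 (chr11:96195806-96196218), Hoxb5 (chr11:96304635-96304880), Hoxb3 (chr11:96331970-96332243) and Gm53 (chr11:96260359-96260587). The region in Hoxd was inside Hoxd11, 515 bp from a start of Hoxd10 (chr2:74683536-74683758).

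In the opposite direction, 1 of 114 Hox regions (0.877%) was called in both mutant libraries but neither wild-type library, beside 1.75% of all regions. It lay in Hoxb2 and the antisense RNA Hoxb3os (chr11:96351963-96352196), 331 bp from the gene's start, at 2.44 and 2.07. The count was 3 (2.63%) without wild-type library 1, beside 3.66% of all regions, and 4 (3.51%) without wild-type library 2, beside 2.56%. It was 6 (4.76%) without mutant library 1, beside 3.83%, and 3 of 120 without mutant library 2, beside 4.11%. With equal numbers of peaks it was 13 of 113 (11.5%), beside 6.99%.

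Genes that work with or on Hox proteins were mostly open at the start, read in the same way. TALE cofactors, homeodomain proteins that bind DNA together with Hox proteins, were called in all 4 libraries in 9 of 9 cases, beside the 66.8% of all genes. Pbx3 gave 8.54, 7.97, 7.59 and 7.95, and Meis1, the partner of Hoxa9 in leukaemia, gave 4.64, 4.52, 3.85 and 3.56. Hox activators were called in 14 of 15 cases, with Kmt2a at 3.69, 3.64, 3.04 and 3.57. The exception was Cdx4, a caudal-type activator of posterior Hox genes, called in wild-type library 2 alone at 2.37.

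Polycomb genes were called in all 4 libraries in 17 of 17 cases, with Ezh2, the histone H3 methyltransferase, at 5.97, 5.86, 4.85 and 5.09 and Cbx8 at 7.29, 7.14, 6.35 and 6.33. ParaHox and neighbouring homeobox genes, which like Hox genes are developmental regulators silent in most tissues, were called in 11 of 12 cases. Evx2, next to Hoxd13, gave 2.17, 2.16, 1.81 and 1.78, and Gsx1, a ParaHox gene, 8.20, 7.32, 6.80 and 6.80. Meox1 was called in the wild-type libraries alone, at 2.32 and 2.68. A peak at a start shows accessibility and gives no level of RNA.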

How the data were processed

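Open chromatin was measured by ATAC-seq in 4 DN3 libraries, 2 per genotype. The submitters' processing notes name Bowtie2 2.3.3.1, cutadapt 1.16, MACS2 2.1.1, SAMtools 1.7 and build mm10 (GRCm38). Settings, and any shift of reads for transposase cutting, were not given in the sources used here. Each library had its own deposited list of broad peaks, not pooled. The score that the authors deposited is 10 times the −log10 q, truncated. Their deposited fold enrichment is a ratio, the mean over a peak. Each −log10 p and −log10 q, as deposited, refers to a peak within its own library. The lists differ in shortest peak (64, 65, 73 and 87 bp) and in how far apart peaks were joined, which bears on counts and widths. Depth is unknown.

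Chromosomes 1 to 19, X and Y were kept, leaving out 0.112% to 0.131% of each list. Regions are the merged union of the 4 lists, and a library had a region where a peak overlapped it by 1 bp. Gene positions and promoters came from RefSeq tables of GRCm38.p6. A start was the annotated one where the promoter table had the gene, otherwise either gene end. Tests were exact permutations over libraries, which cannot go below 0.333 for 2 against 2, or exact sign flips within libraries, which cannot go below 0.13 (1 in 8). Cluster pairs were adjusted by the Benjamini-Hochberg method. Genes named in full were the 12 with the highest lowest start fold and those called in some libraries only. Group 13 genes were added after their values were seen. Values of 1 Hox gene and the regions at it, and of 2 genes of the other lists, are not reported here, though counts include them. Named regions were the 3 strongest and the widest of each cluster and those called in 1 genotype. Alternatives changed the peaks kept, the joining gap together with the minimum length, window, overlap, distance to the start, gene classes, libraries left out and the replicate block. The members and lists were chosen with earlier results of these data known. Code was tested on simulated lists. Python 3.11.15, numpy 2.4.6, pandas 2.3.3 and matplotlib 3.10.9 were used.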

Additional observations from a re-analysis of the deposited data

How the results depend on the processing

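Of 215 values recomputed under alternatives, 186 kept their direction or, for counts, stayed within 1.5 times, 14 moved and 15 reversed. With peaks of fold 4 or more, 8 Hox genes had a start peak in all libraries. No share over all genes was computed at that fold, so this count cannot be set against other genes. Regions called in wild type alone numbered 9 of 29 (31.0%, beside 19.7% of all regions). Those called in the mutant alone were 0 of 20, beside 1.55%. The differences became -0.450 points (Hoxa minus Hoxb), -1.39 (Hoxa minus Hoxd), 2.02 (Hoxb minus Hoxc) and -1.20 (posterior minus anterior). With −log10 q of 5 or more, the region counts were 9 of 78 (11.5%, beside 10.3%) and 2 of 66 (3.03%, beside 1.72%). Hoxb minus Hoxc was then 0.454. With equal numbers of peaks, mutant minus wild type was 2.5 peaks in Hoxa, 2 in Hoxb, 5 in Hoxc, 4.5 in Hoxd and 14 in all. In covered length it was 1120 bp in Hoxa, 855.5 in Hoxb, 2170 in Hoxc and 3424.5 in all. Hoxd kept its direction there, at -721 bp. The region counts were then 0 and 13. Regions called in the mutant alone numbered 2 of 110 with common joining and minimum length (1.82%, beside 2.20%). Where 50% of a region had to be covered they numbered 5 of 93 (5.38%, beside 7.46%). With windows of 0 kb beyond the genes, Hoxa covered 37 bp more in the mutant. The causes were not tested. Leaving out 1 library at a time gave 21 to 45 regions called in wild type alone and 3 to 6 in the mutant alone. Replicate numbers are shared between genotypes, but deviations of same-numbered libraries correlated at -0.0864 over 21887 gene windows, so they were not treated as pairs. The replicate block left the difference of -36 peaks and gave an exact permutation p = 0.5, the smallest for 2 pairs. Depth is unknown, so weak peaks missing from a list were not detectable there.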

Other observations

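The 4 windows also held 27 long non-coding RNA genes, of which 18 (66.7%) overlapped a peak in all 4 libraries and 7 (25.9%) in none, beside 49.6% and 39.3% of 12727 long non-coding genes. Hottip, transcribed at the 5′ end of Hoxa next to Hoxa13, had peaks of 2.47, 2.15, 1.95 and 1.93. Haglr, next to Hoxd1, had 8.92, 8.23, 5.77 and 6.92, from the same peak as the Hoxd1 start. Hoxa11os, antisense to Hoxa11, had 37.0%, 36.6%, 37.9% and 38.6% of its span covered. Hotair, in the Hoxc cluster between Hoxc12 and Hoxc11, had no peak in wild-type library 1 and peaks of 2.31, 2.16 and 2.28 in the other libraries, over 4.94%, 2.70% and 7.05% of its span.

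The non-coding gene Mira, between Hoxa6 and Hoxa7, and Hoxaas2, which reaches from near Hoxa2 into Hoxa3, had no peak in any library. Evx2, the homeobox gene beyond Hoxd13, had 3 peaks in each library over 26.2%, 25.3%, 24.3% and 26.1% of its span. These names were chosen after the values were seen, and overlapping genes share peaks.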
